A study of Arabidopsis thaliana with 24 samples.

Results

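The loci described here are the plastid-encoded genes of Arabidopsis thaliana, taken as every locus of the expression table whose identifier begins with ATCG; 133 of the 33020 loci in the table met that rule. RNA-seq was done on whole seedlings, 6 days old, of 4 genotypes: wild type (WT, accession Col-0), pif7, asf1ab and hira. Every genotype was grown in white light, and for each there was a group kept in white light and a group given 1 hr of shade (red to far-red ratio, R/FR, of 0.4), with 3 libraries in each of the 8 groups. PIF7 is a phytochrome-interacting transcription factor of shade signalling, and ASF1 and HIRA are histone chaperones; the alleles are not named in the labels. Whether the 3 libraries within a group were grown as separate cultures is not stated in the labels, and p-values therefore measure only the spread between these samples, which may be technical.

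Chloroplasts and other plastids keep a small genome of bacterial ancestry, present in many copies in each cell. It codes for core subunits of the photosystems, the cytochrome b6f complex, the ATP synthase and the NDH complex, for the large subunit of Rubisco, and for ribosomal proteins, ribosomal RNAs, transfer RNAs and subunits of a bacterial-type RNA polymerase. That polymerase works with sigma factors and associated proteins encoded in the nucleus, and phage-type RNA polymerases, also nuclear, transcribe part of the plastid genome.

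The reference annotation used here (TAIR10.1) lists 129 plastid genes, of which 85 code for proteins, 37 for transfer RNAs and 7 for ribosomal RNAs, but it pairs 0 of them with an ATCG identifier. A product could be given for 6 loci only, from notes in that annotation: ATCG00670 (the plastid-encoded subunit P of the Clp protease), ATCG01310 (ribosomal protein L2), ATCG00660 (ribosomal protein L20), ATCG00750 (ribosomal protein S11), ATCG00430 (noted as photosystem II reaction center protein G) and ATCG00530 (a CemA-like protein). These names are those of the notes and were not checked here. All other loci are given by identifier, with no role, and their coordinates and sequences are not given because that annotation is not the TAIR10 build of the files.

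The unit of the table is FPKM, fragments per kilobase of transcript scaled to the fragments of the library, so levels are per length. Levels of different loci are set side by side only as listed, because locus lengths and the depth behind each value are unknown here. Of the 133 loci, 48 were listed at 0 in all 24 libraries, 27 were above 0 in some libraries and 58 were above 0 in all of them. Between 65 and 76 of the loci were above 0 in any one library. A mean of at least 1 FPKM, the filter for testing, was reached by 75 loci, 55 of them above 0 in all libraries and 20 at 0 in at least 1; 10 more were detected but lay below that mean. Among the 75, 9 had a mean of at least 100 FPKM, 23 lay from 10 to 100 and 43 from 1 to 10. The loci came with 9 pairs whose values were identical in every library, so the 75 tested loci hold 67 distinct sets of values and a pair counts as 2 in each count of loci below; the sources used here do not say how reads of such copies were assigned. Zeros ran in blocks of neighbouring identifiers: all 7 loci from ATCG00200 to ATCG00260 and all 4 from ATCG00590 to ATCG00620 were listed at 0 throughout, and so were 7 of the 10 from ATCG00370 to ATCG00460, where the highest value was 1.05 FPKM. Since the depth behind each value is unknown, a value of 0 is read here only as listed at 0.

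Most of the plastid signal came from 4 identifiers with 2 sets of values. ATCG00920 and its copy ATCG01210 had a mean of 2158 FPKM over the 24 libraries, and ATCG00950 and its copy ATCG01180 had 1914 FPKM. Together the 4 made up 76.2% to 86.1% of the summed plastid FPKM of a library, with a mean of 82.1%. The ratio of the first pair to the second ran from 0.904 to 1.34 across libraries. The next levels were 349 FPKM for ATCG00020, 213 FPKM for ATCG00970 and its copy ATCG01160, 147 FPKM for ATCG00700 and 131 FPKM for ATCG00490. ATCG00280 lay just below 100 FPKM, and ATCG00330 followed at 71.8 FPKM.

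The plastid loci took between 0.505% and 2.99% of the summed FPKM of a library, with a median of 1.02%. In white light the share was 0.905%, 0.851% and 0.864% in the 3 WT libraries, 0.829%, 0.990% and 1.07% in pif7, 2.31%, 1.12% and 0.988% in asf1ab, and 2.50%, 2.99% and 1.42% in hira. In shade it was 1.04%, 0.624% and 0.505% in WT, 0.698%, 1.15% and 1.19% in pif7, 1.13%, 1.00% and 0.992% in asf1ab, and 0.931%, 1.24% and 1.27% in hira. Replicates of 1 group therefore differed by as much as most groups did: the first white-light asf1ab library had more than the other 2 of its group, the third shaded WT library had the lowest share of all, and white-light hira was the one group that lay wholly above every library of its shaded counterpart and of white-light WT.

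**Figure D1:**
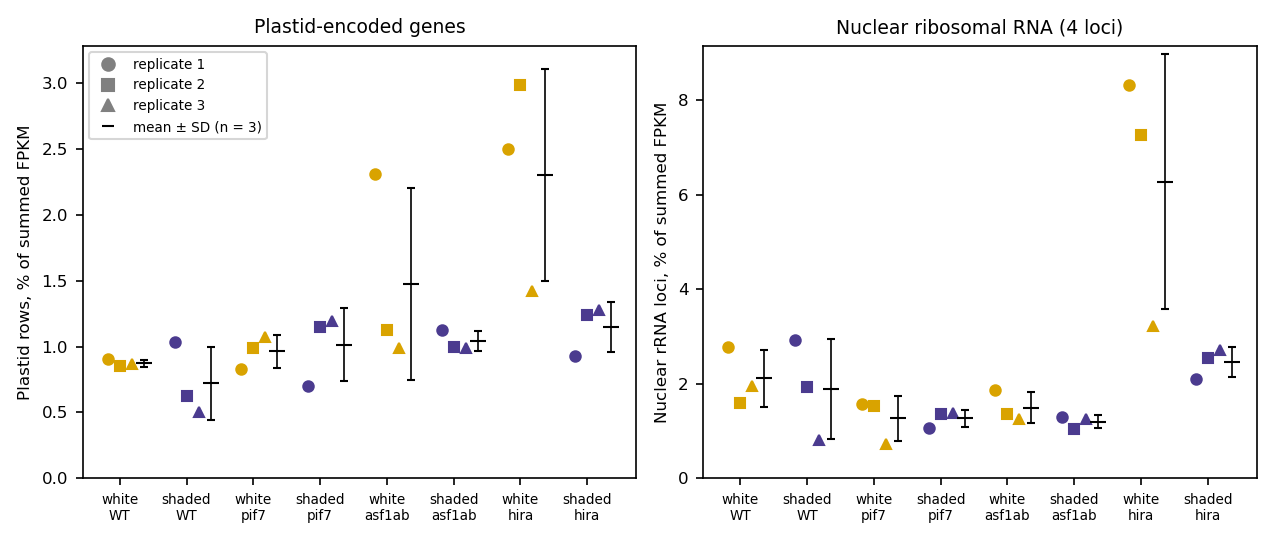
Share of the summed FPKM of each library (percent, vertical axes) taken by plastid loci (left) and by nuclear rRNA loci (right), by genotype; yellow is white light, purple is shade, circles, squares and triangles are replicates 1, 2 and 3, and black marks are the mean ± SD (n = 3). White-light hira reaches 2.99% plastid and 8.32% nuclear rRNA, and the first white-light asf1ab library reaches 2.31% plastid. Loci with identical values are each counted.

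In WT the mean share was 0.873% ± 0.0282 (SD, n = 3) in white light and 0.721% ± 0.279 (SD, n = 3) in shade, a difference within the spread (exact two-sided permutation p = 0.4). In pif7 it was 0.963% ± 0.123 in white light and 1.01% ± 0.275 in shade (SD, n = 3 each, exact two-sided permutation p = 0.8), and in asf1ab 1.47% ± 0.727 and 1.04% ± 0.0754 (exact permutation p = 0.7, n = 3 each). In hira the share was 2.30% ± 0.802 in white light and 1.15% ± 0.189 in shade, a difference of -1.15 percentage points ± 0.476 (SE); the exact permutation p of 0.1 is the smallest that 3 libraries against 3 allow, and in white light hira exceeded WT by 1.43 percentage points ± 0.463 at that same p. White-light asf1ab exceeded white-light WT by 0.60 percentage points ± 0.420 (exact permutation p = 0.1, n = 3 each), and white-light pif7 by 0.0899 percentage points (exact permutation p = 0.4, n = 3 each). Averaged over the 4 genotypes, shade minus white light was -0.422 percentage points ± 0.17 (exact permutation p = 0.0346, labels exchanged within genotype). Without the hira libraries and the first white-light asf1ab library that average was -0.0389 percentage points (exact permutation p = 0.627), so it rested on those libraries.

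The white-light hira libraries had the highest shares of nuclear rRNA as well: loci annotated as nuclear rRNA took 8.32%, 7.27% and 3.22% of their summed FPKM, against 0.724% to 2.92% in the other 21 libraries, with 1.86% in the first white-light asf1ab library. AT2G01020 and AT3G41979 had identical values in every library, and both count in this share. Each had 32619, 26846 and 10776 FPKM in white-light hira and at most 9619 FPKM elsewhere. AT3G41768 had 9163, 10149 and 5124 FPKM in white-light hira and up to 6548 FPKM elsewhere, so replicate 3 did not stand apart there. The mitochondrial loci took 0.0177% to 0.0511% of a library, and white-light hira lay between 0.0374% and 0.0511%. Across the 21 libraries other than white-light hira, the plastid share and the nuclear rRNA share had Pearson r = 0.202 and Spearman rho = 0.142 (permutation p = 0.387 and 0.538, adjusted p of r over 2 relations 0.773), and r = 0.301 without the 2 libraries farthest from the median; these shares are parts of 1 sum. The plastid and mitochondrial shares had r = -0.0512 and rho = 0.246 (permutation p = 0.844 and 0.282), and without the first white-light asf1ab library r = 0.348 and rho = 0.424, so the sign of r rested on that library. All 5 shoot markers were present in every library, summing to 29560 to 52779 FPKM, with white-light hira at 40290 to 52779 and white-light WT at 36081 to 41120. The 5 root markers summed to 32.1 to 73.3 FPKM. In white light the root sum was 63.4 to 73.3 FPKM in WT, 40.2 to 60.8 in pif7, 48.0 to 55.2 in asf1ab and 50.2 to 58.4 in hira. White-light WT thus lay above every white-light library of the mutants in this sum, but not in each marker. CASP1 had 21.99 to 22.95 FPKM in WT, 6.15 to 8.23 in pif7 and 7.76 to 10.72 in asf1ab. In hira CASP1 had 12.65, 13.23 and 22.35 FPKM. SCR went the other way in asf1ab, with 20.58, 20.4 and 21.77 FPKM against 17.22, 17.17 and 15.06 in WT. For asf1ab limma called 1 of the 5 higher and 3 lower, where 6.26% and 15.8% of all genes were. In whole seedlings, fewer plastid-bearing cells and less plastid RNA per cell cannot be told apart, and the part of RNA quality, rRNA content or depth in the plastid values was not tested.

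Locus by locus, the plastid levels moved together between libraries. Over the 51 distinct sets of values above 0 in all libraries, the median log2 ratio to a locus's own median over libraries was 1.60 in the first white-light asf1ab library and 1.12, 1.58 and 0.52 in white-light hira replicates 1, 2 and 3. It was -0.91 in the third shaded WT library, -0.41 in the second, -0.33 in the first shaded pif7 library, and between -0.19 and 0.15 in the remaining ones. White-light hira replicate 2 was the highest library for 28 of the 51, the first white-light asf1ab library for 21, and white-light hira replicate 1 for 1; the third shaded WT library was the lowest for 28. The likeness of these profiles among the 4 high libraries, as Pearson r over the 51 loci, was 0.73 to 0.85, given as a description since loci of 1 library share its depth and RNA.

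**Figure D2:**
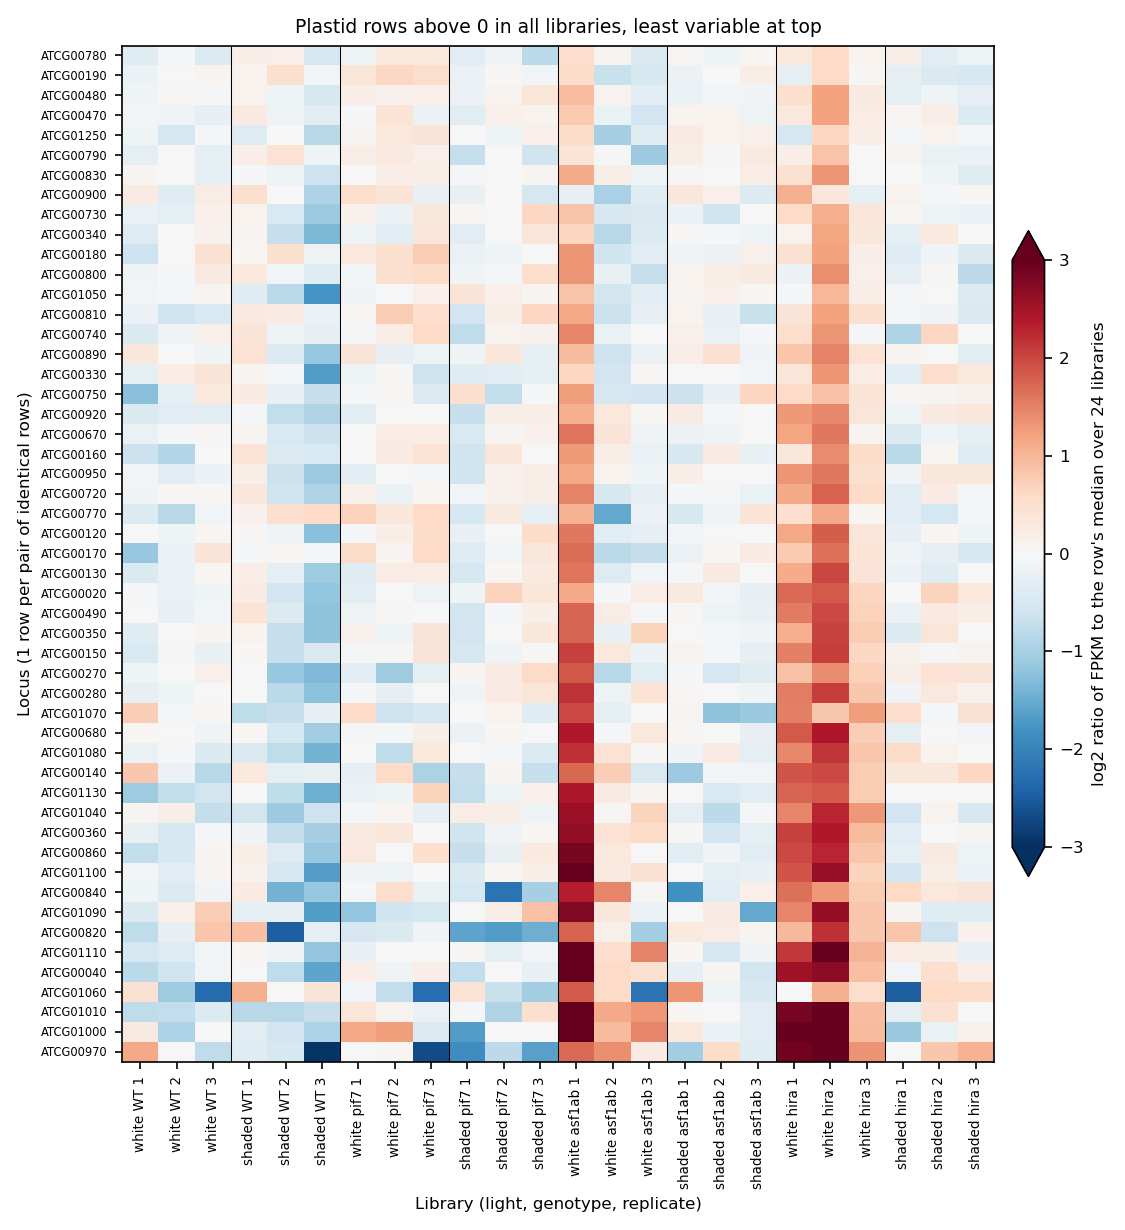
Log2 ratio of each plastid locus to its own median over the 24 libraries (colour, from -3 to 3), for the 51 distinct sets of values above 0 in all libraries, with libraries in columns by group and the least variable loci at the top. The first white-light asf1ab library and white-light hira replicates 1 and 2 are high down most of their columns, with medians of 1.60, 1.12 and 1.58, and the third shaded WT library is low at -0.91.

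The range differed from locus to locus. The ratio of the highest to the lowest library ran from 2.44 for ATCG00190 to 75.2 for ATCG00970, with a median of 7.88; it was at least 4 for 42 of the 51 loci and at least 10 for 17. The SD of the log2 ratio over libraries was 0.34 for ATCG00780, 0.37 for ATCG00190 and 0.38 for ATCG00480, the steadiest, and 1.27 for ATCG01010, 1.52 for ATCG01000 and 1.53 for ATCG00970, the least steady. The loci highest in the first white-light asf1ab library were not spread evenly over the identifiers: of the 12 from ATCG01000 upward 10 were highest there, against 6 of 19 below ATCG00500 and 5 of 20 in between. This count is a description, with no test.

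ATCG00190 was one of the even loci. Its level was 8.6, 9.74 and 10.2 FPKM in white-light WT, 10.4, 13.5 and 9.14 in shaded WT, 12.4, 15.0 and 13.9 in white-light pif7, 8.36, 9.89 and 9.11 in shaded pif7, 14.2, 6.12 and 6.87 in white-light asf1ab, 8.48, 9.56 and 11 in shaded asf1ab, 7.87, 14.4 and 9.82 in white-light hira, and 8.0, 7.16 and 6.87 in shaded hira. It was the 1 locus of the 51 that was highest in a library other than the 4 high ones, white-light pif7 replicate 2. It was lowest, at 6.12 FPKM, in white-light asf1ab replicate 2.

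ATCG01000, near the other end, was low in most libraries and high in 3. In white light it had 1.78, 0.78 and 1.48 FPKM in WT, 3.27, 3.52 and 1.1 in pif7, 29.1, 2.86 and 4.07 in asf1ab, and 16.5, 20.3 and 2.83 in hira. In shade it had 1.19, 0.99 and 0.76 FPKM in WT, 0.46, 1.45 and 1.46 in pif7, 1.83, 1.31 and 1.19 in asf1ab, and 0.68, 1.28 and 1.62 in hira. Every shaded library lay below 2 FPKM, and the 3 values above 10 FPKM came from the first white-light asf1ab library and white-light hira replicates 1 and 2.

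The most abundant pair followed the same libraries over a narrower range. ATCG00920 had 1393, 1513 and 1506 FPKM in white-light WT and 1838, 1120 and 1010 in shaded WT, 1481, 1859 and 1905 in white-light pif7 and 1162, 2117 and 2171 in shaded pif7. It had 3958, 2331 and 1940 FPKM in white-light asf1ab and 2245, 1821 and 1857 in shaded asf1ab, 4659, 5106 and 2405 in white-light hira and 1728, 2286 and 2393 in shaded hira. White-light hira lay above shaded hira in every library, though its replicate 3 exceeded the highest shaded one by little, and in WT, pif7 and asf1ab the lights overlapped.

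ATCG00970 had the widest range of the 51 loci above 0 in all libraries. It had 262, 119.5 and 70.3 FPKM in white-light WT and 92.5, 85.7 and 15.4 in shaded WT, 118, 124 and 18.4 in white-light pif7 and 32.6, 68.6 and 38.6 in shaded pif7. It had 383, 311 and 141 FPKM in white-light asf1ab and 57.5, 173 and 92.6 in shaded asf1ab, 883, 1162 and 301 in white-light hira and 118, 209.6 and 244 in shaded hira. The groups did not overlap between the lights in hira, and did in WT, pif7 and asf1ab.

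**Figure D3:**
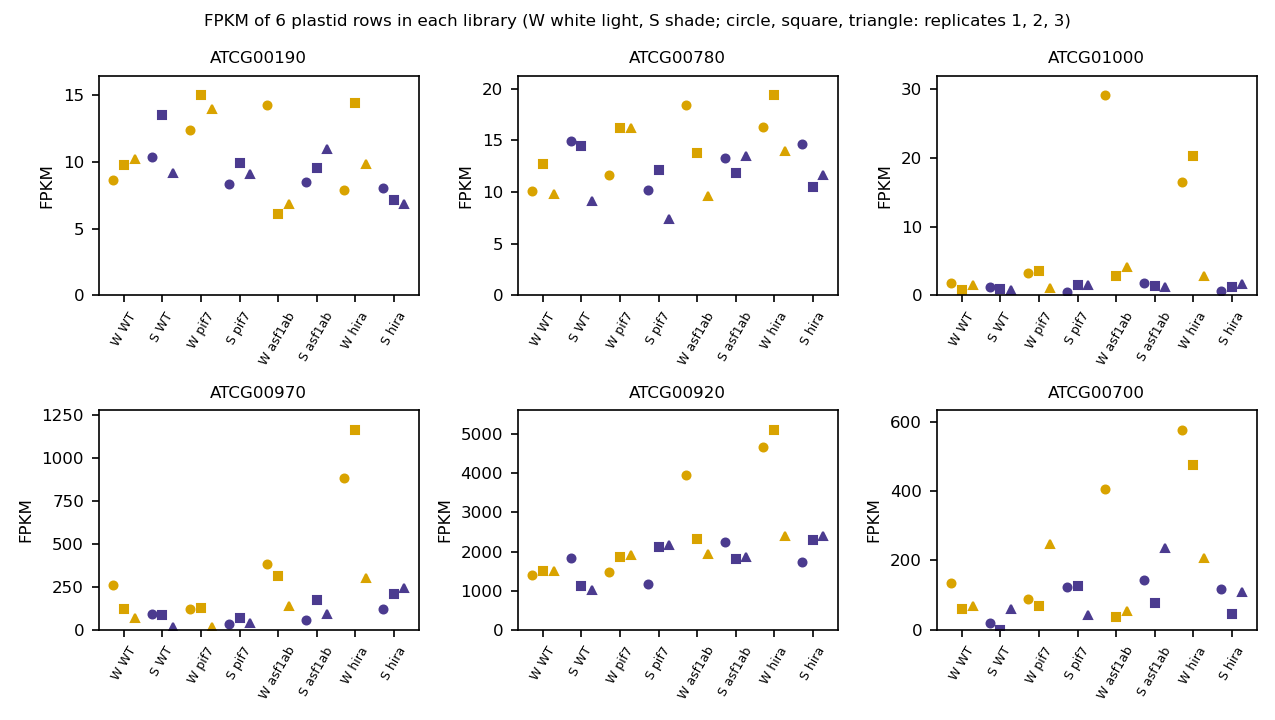
FPKM of 6 plastid loci in each library (vertical axes, one panel each: ATCG00190, ATCG00780, ATCG01000, ATCG00970, ATCG00920 and ATCG00700), by genotype and light, points as replicates. ATCG00190 stays between 6.12 and 15.0 FPKM, while ATCG01000 exceeds 10 FPKM in 3 libraries only.

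Some loci were listed at 0 in part of the libraries, and they are named here because of their values. ATCG00760 was above 0 in 1 library, the second of shaded asf1ab, at 41.9 FPKM, and ATCG00080 in 1, the first of white-light WT, at 39.5 FPKM. ATCG00570, ATCG00560 and ATCG00550 were each above 0 in 5 libraries. The 5 libraries of ATCG00560 were all in white light, with 6.98 FPKM in WT, 12.1 and 16.5 in pif7, 30.1 in asf1ab and 50.4 in hira, and it was listed at 0 in all 12 shaded libraries and in the other 7 of white light. ATCG00630 was at 0 in 5 libraries of 4 groups and reached 143 FPKM in white-light hira replicate 2, whose first replicate was at 0. ATCG00700, of the abundant loci the one with a 0, had 136, 61.4 and 68.6 FPKM in white-light WT and 19.8, 0 and 59.8 in shaded WT.

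Tests across all genes used limma on log2(FPKM + 1) with Benjamini-Hochberg adjustment over 19126 genes, and a locus is called higher or lower at an adjusted p below 0.05; log2 changes are on that scale, which understates changes of low loci. The standard error of a plastid locus was large, with a median of 0.40 against 0.13 over all genes. In none of the 4 genotypes was a plastid locus called higher in shade by limma, where 14.9% of all genes were in WT, 29.9% in pif7, 18.8% in asf1ab and 26.0% in hira; at an unadjusted p below 0.05 the only higher locus was 1 in asf1ab.

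In WT, 4 of 75 loci were called lower in shade and 0 higher (4 in all against 6 at an unadjusted p below 0.05), where 11.4% of all genes were called lower and 14.9% higher; the 4 are 5.33% of the loci. ATCG00070 had 18.6, 18.7 and 19.2 FPKM in white light and 0, 0 and 8.46 in shade, a log2 change of -3.23 ± 0.97 (SE, limma adjusted p = 0.018), with no overlap between the groups. ATCG01020 had 37.3, 52.9 and 23.2 FPKM in white light and 9.85, 0 and 8.5 in shade, a log2 change of -2.97 ± 1.03 (limma adjusted p = 0.0381). ATCG01050 had 7.96, 8.29 and 8.9 FPKM against 6.51, 4.8 and 2.46, which is a log2 change of -0.82 ± 0.28 (limma adjusted p = 0.0384). For ATCG00700, with the values above, it was -2.96 ± 1.08 (limma adjusted p = 0.0495). All 4 sets of values were free of overlap between the lights, and 3 of the 4 had a shaded library listed at 0. Of the 75 loci, 6 lay wholly below white light in shade, where 19.0% of all genes did. The median log2 change of the 75 loci was -0.24, against 0.01 over all genes, and 57 lay below 0. The count moved to 1 without white-light WT replicate 1, to 2 without shaded replicate 1 and to 0 without shaded replicate 2; a fit of the WT libraries alone called 2 (1 higher, 1 lower).

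In pif7 no plastid locus was called by limma, with 6 lower and 0 higher at an unadjusted p below 0.05, where 43.5% of all genes were called in either direction. The median log2 change of the loci was -0.11, against 0.12 over all genes, and with libraries scaled by the median of ratios it was -0.23, against 0.01. ATCG00020 had 214, 267 and 241 FPKM in white light and 245, 434 and 347 in shade, with overlap between the groups. Among the loci short of a call, ATCG00190 changed by -0.54 (limma adjusted p = 0.053) and ATCG00780 by -0.53 (limma adjusted p = 0.0533). In shade 7 of 75 loci lay wholly below white light and 3 wholly above, where 18.0% and 34.3% of all genes did. Without white-light asf1ab replicate 1, whose removal changes the spread shared by all groups, 5 loci were called (1 higher, 4 lower), and without white-light asf1ab replicate 3 it was 4; a fit of the pif7 libraries alone called 10 (3 higher, 7 lower).

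In asf1ab, 11 of 75 loci were called lower in shade, or 14.7%, where 12.3% of all genes were. ATCG01010 had 12, 2.19 and 2.44 FPKM in white light and 1.04, 0.98 and 0.79 in shade, a log2 change of -1.43 ± 0.42 (limma adjusted p = 0.0132). ATCG01110 had 19.4, 2.22 and 4.35 FPKM against 1.61, 1.08 and 1.44, a change of -1.58 ± 0.45 (limma adjusted p = 0.0113). Both were free of overlap, and in both the first white-light library was several times the other 2. ATCG01000 changed by -1.79 ± 0.61 (adjusted p = 0.0312), ATCG00360 by -1.35 ± 0.40 (adjusted p = 0.0141) and ATCG00040 by -1.52 ± 0.53 (adjusted p = 0.0328), on the log2 scale. ATCG00640 and ATCG01120, also called, were listed at 0 in all 3 shaded libraries, so no fold is given; ATCG01120 had 13.2, 1.89 and 1.94 FPKM in white light. The median log2 change was -0.35, against 0.05 over all genes. Without white-light asf1ab replicate 1 the median was 0.05, 0 loci were called lower by limma and 2 higher (9 at an unadjusted p below 0.05), where 16.6% of all genes were called higher, so the falls in asf1ab rested on that library. Without white-light asf1ab replicate 3 the count was 18, and a fit of the asf1ab libraries alone called 1.

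In hira, 30 of 75 loci were called lower in shade, or 40.0%, where 9.55% of all genes were. The median log2 change was -0.93, against 0.14 over all genes, and 70 of the 75 lay below 0. In 46 loci all 3 shaded libraries lay below all 3 of white light, which held for 12.7% of all genes. ATCG00360 had 28.0, 35.8 and 13.1 FPKM in white light and 5.48, 6.73 and 7.21 in shade, a log2 change of -1.73 ± 0.40 (limma adjusted p = 0.00239). ATCG00680 had 63.4, 94.0 and 29.2 FPKM against 14.7, 17.9 and 16.7, which is a change of -1.71 ± 0.43 (limma adjusted p = 0.00465). The groups did not overlap in either locus, and replicate 3 of white light was the one nearest to shade in both. ATCG01000 changed by -2.38 ± 0.61 (adjusted p = 0.00501). Of the abundant loci, several were called, with a log2 change of -1.06 ± 0.35 for ATCG00020 (adjusted p = 0.0221), -0.87 ± 0.30 for ATCG00920 (adjusted p = 0.0309) and -0.93 ± 0.33 for ATCG00950 (adjusted p = 0.0354), each from limma. ATCG00970 at -1.88 (adjusted p = 0.0586) and ATCG00700 at -2.19 (adjusted p = 0.123) were not called, and neither was ATCG00190.

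The number of calls in hira depended on which white-light hira libraries were kept. Without white-light hira replicates 1 and 2, which leaves 1 library assumed to vary like those of the other groups, 0 loci were called by limma (2 lower at an unadjusted p below 0.05), where 8.09% of all genes were called lower. The median log2 change was then -0.43 and 65 of 75 loci lay below 0. That count is a description only, since the loci share 1 white-light hira library and are not replicates. Leaving out 1 library at a time gave 19 called loci without white-light hira replicate 1, 6 without replicate 2 and 38 without replicate 3.

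**Figure D4:**
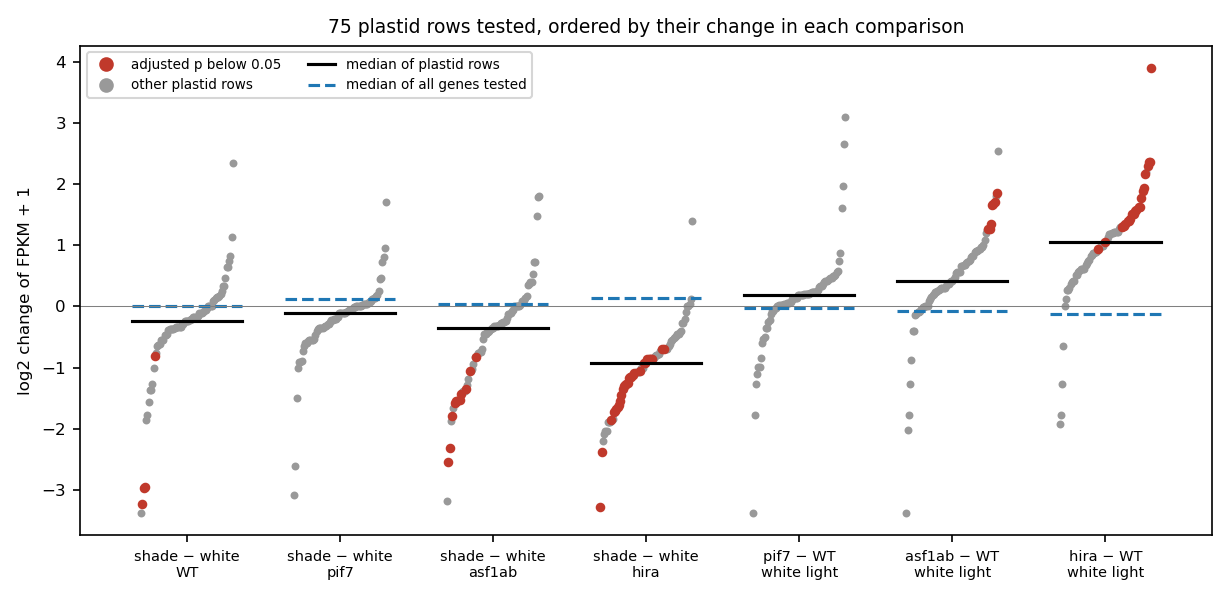
Log2 change, on log2(FPKM + 1), of the 75 tested plastid loci (points) in 7 comparisons; red points passed limma at an adjusted p below 0.05, the black line is the median of the plastid loci and the blue dashed line that of all genes. The plastid median reaches -0.93 in shaded hira and 1.05 where white-light hira is set against WT, and no point is red on the upper side of a shade comparison.

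Averaged over the 4 genotypes, 32 of 75 loci were called lower and 0 higher, or 42.7%, where 20.6% of all genes were called lower and 38.4% higher. The average log2 change was -2.04 ± 0.49 for ATCG00070 (limma adjusted p = 0.00131), -1.28 ± 0.31 for ATCG01000 (adjusted p = 0.00129), -1.30 ± 0.38 for ATCG00970 (adjusted p = 0.00611) and -0.93 ± 0.20 for ATCG00360 (adjusted p = 0.000538). For the average over WT, pif7 and asf1ab without white-light asf1ab replicate 1, 6 of 75 were called lower, with a median log2 change of -0.08, where 19.7% of all genes were called lower. Those 6 were ATCG00070 at -1.33, ATCG00360 at -0.44, ATCG00560, at 0 in every shaded library, ATCG00840 and its copy ATCG01300 at -0.78, and ATCG01020 at -1.43.

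Between genotypes in white light, no plastid locus was called in pif7 against WT (limma, 7 at an unadjusted p below 0.05), where 0.397% of all genes were. The median log2 difference was 0.18, against -0.02 over all genes, and 55 of 75 loci lay above 0.

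In asf1ab against WT in white light, 7 loci were called higher and 0 lower, or 9.33%, where 6.26% of all genes were called higher and 15.8% lower. All 7 are also among the 11 called lower in shaded asf1ab, a comparison that uses the same white-light asf1ab libraries. ATCG01010 had 0.59, 0.6 and 0.75 FPKM in white-light WT and, as above, 12, 2.19 and 2.44 in asf1ab, a log2 difference of 1.67 ± 0.42 (limma adjusted p = 0.00785). ATCG00040 had 2.05, 2.36 and 3.36 FPKM in WT and 40.3, 5.43 and 4.89 in asf1ab, a difference of 1.71 ± 0.53 (limma adjusted p = 0.0245). In both, all 3 asf1ab libraries lay above all of WT, which held for 12 of 75 loci and for 10.8% of all genes. Without white-light asf1ab replicate 1, 0 loci were called by limma (6 at an unadjusted p below 0.05), where 4.88% of all genes were called higher, and the median was 0.02 in place of 0.41; without replicate 3, 15 were called. A fit of these 6 libraries alone called 0 (limma, 9 at an unadjusted p below 0.05).

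In hira against WT in white light, 24 loci were called higher and 0 lower, or 32.0%, where 2.61% of all genes were called higher and 9.03% lower. A limma fit of these 6 libraries alone called 0, with 48 higher at an unadjusted p below 0.05. The median log2 difference was 1.05, against -0.12 over all genes, and 70 of 75 loci lay above 0. In 42 loci the 3 hira libraries lay above all of WT, as in 5.53% of all genes. ATCG00360 had 5.82, 4.7 and 6.58 FPKM in WT, below every hira value, with a log2 difference of 1.89 ± 0.40 (limma adjusted p = 0.00541). ATCG00490 had 101, 86.4 and 95.8 FPKM in WT and 299, 399 and 163 in hira, a difference of 1.5 ± 0.40 (limma adjusted p = 0.0201). ATCG00300 had 0, 11.6 and 0 FPKM in WT and 43.9, 33.7 and 25.9 in hira, a difference of 3.90 ± 1.01 (limma adjusted p = 0.0183). These 3 were free of overlap, and ATCG00190 at 0.12 (adjusted p = 0.749) was not called. Without white-light hira replicates 1 and 2, 0 loci were called by limma (2 higher at an unadjusted p below 0.05), where 0.654% of all genes were called higher; the median was then 0.57 and 63 of 75 loci lay above 0. That fit leaves 1 white-light hira library, so 63 of 75 is a description only, since its loci are not replicates. The count of called loci was 4 without white-light hira replicate 1, 5 without replicate 2, 36 without replicate 3, 10 without white-light WT replicate 2 and 14 without white-light WT replicate 3.

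In the fit of all 24 libraries the shade response was not shown to differ between genotypes for any plastid locus. For pif7 minus WT limma called 0 loci (8 at an unadjusted p below 0.05), where 6.1% of all genes were called. For asf1ab minus WT it called 0 (7 unadjusted), where 0.46% of all genes were called, and for hira minus WT 0 (14 unadjusted, 13 of them lower), where 1.29% were called. The median log2 difference for hira minus WT was -0.70 over the plastid loci and 0.11 over all genes; for asf1ab minus WT it was -0.14 and 0.04. Some alternatives made calls: 2 for pif7 minus WT without white-light asf1ab replicate 1, 4 for hira minus WT without white-light hira replicate 3, 4 for pif7 minus WT in a fit of those genotypes alone, and 4, 1 and 1 for pif7, asf1ab and hira with plastid values scaled to a common level. For pif7 minus WT the median was 0.07 against 0.11 over all genes, and it was -0.02 when libraries were scaled by the median of ratios.

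When each library's plastid values were scaled to a common plastid level, the calls were of loci that differed from the other plastid loci, and some had not been called before the scaling. The factors divided out were 2.76 in the first white-light asf1ab library, 2.13, 2.72 and 1.35 in white-light hira and 0.477 in the third shaded WT library. In hira against WT in white light, 5 of 75 loci were then called higher, where 2.51% of all genes were: ATCG01000 at a log2 difference of 1.28, ATCG00040 at 1.10, ATCG01010 at 1.04, ATCG01110 at 0.82 and ATCG00360 at 0.77. In asf1ab against WT, 6 were called higher, where 6.26% of all genes were: ATCG01000 at 1.34, ATCG01010 at 1.21, ATCG00040 at 1.15, ATCG01110 at 1.15, ATCG00360 at 0.76 and ATCG01100 at 0.67. Called lower were 7 loci in each comparison, none of them called lower before the scaling, where 9.05% of all genes were for hira and 15.9% for asf1ab. ATCG00190 was among them in both, at -0.95 in hira and -0.71 in asf1ab, and so was ATCG01050, at -0.71 and -0.56. Both comparisons use the same WT libraries, and the scaling factors come from the loci tested, so these are relations among plastid loci and not changes of level.

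Of the loci with a product in the notes, ATCG00670, the subunit P of the plastid Clp protease, had 9.1, 10.3 and 10.7 FPKM in white-light WT and 11.1, 7.67 and 6.69 in shaded WT, 32.1, 13.8 and 9.74 in white-light asf1ab and 9.26, 9.62 and 10.5 in shaded asf1ab, 24, 31.5 and 11.1 in white-light hira and 7.78, 9.58 and 8.54 in shaded hira. It was called lower in shade in hira, at a log2 change of -1.16 ± 0.33 (limma adjusted p = 0.00936), where the groups did not overlap, and in the average of the genotypes, at -0.57 ± 0.16 (adjusted p = 0.00503); in hira against WT in white light it was 0.96 (adjusted p = 0.0606). ATCG01310 and its copy ATCG00830, which hold ribosomal protein L2 by the annotation of the first, had 12.2, 22.1 and 8.81 FPKM in white-light hira and 8.79, 8.09 and 6.83 in shaded hira, a change of -0.70 ± 0.26 (limma adjusted p = 0.039). ATCG00750, ribosomal protein S11, had 8.62, 10.7 and 7.75 FPKM in white-light hira and 2.42, 4.79 and 7.2 in white-light WT, a difference of 0.87 that was not called (limma adjusted p = 0.137). ATCG00660 was listed at 0 throughout, ATCG00430 was above 0 in 3 libraries at up to 0.35 FPKM, and ATCG00530 was above 0 in 11 libraries at up to 2.68 FPKM.

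Nuclear genes of plastid transcription were measured in the same libraries, with a list of phage-type polymerases that was not limited to those of plastids. Of the 6 sigma factor genes, which give the plastid-encoded polymerase its promoter choice, 4 were called lower in shade in WT, 2 in pif7, 3 in asf1ab and 3 in hira, and 0 were called higher. Over all genes 11.4%, 13.6%, 12.3% and 9.55% were called lower in these genotypes, and 14.9%, 29.9%, 18.8% and 26.0% higher. SIG5 (AT5G24120), a sigma factor known for its response to light and stress, had 79.1, 70.8 and 53.6 FPKM in white-light WT and 28.1, 25.1 and 26.4 in shaded WT, and 63.2, 80.3 and 75 in white-light hira against 13.4, 18.9 and 19.9 in shaded hira. The lights did not overlap in either genotype, and the white-light libraries of hira were close to those of WT. Its log2 change was -1.31 ± 0.19 in WT (limma adjusted p = 3.65e-05), -1.32 in pif7 (2.77e-05), -1.61 in asf1ab (2.09e-06) and -2.02 in hira (1.43e-07). SIG1 (AT1G64860) fell by 0.59 in WT, 0.53 in pif7, 0.64 in asf1ab and 0.50 in hira on the log2 scale. The change of SIG3 (AT3G53920) was -0.50, -0.44 and -0.41 in those genotypes other than pif7, and that of SIG6 (AT2G36990) was -0.30 in WT.

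Of the 3 phage-type polymerase genes, 2 were called higher in shade in pif7 and in hira, where 29.9% and 26.0% of all genes were. AT5G15700 was called higher in shade in pif7, at a log2 change of 0.82, and in hira, at 0.68. MGP3 (AT1G68990), listed as RPOTm, the mitochondrial member of the family, was called at 0.76 in both. Neither gene was called in WT or asf1ab. SCA3 (AT2G24120), the other gene of the list, was not called, with 0.55 in pif7 (limma adjusted p = 0.0957) and 0.68 in hira (adjusted p = 0.0506). Without white-light hira replicates 1 and 2, MGP3 was at 0.24 in hira (limma adjusted p = 0.490) and AT5G15700 at 0.17 (adjusted p = 0.670), while SIG5 stayed called at -2.06 (adjusted p = 4.27e-05). Of 12 genes for proteins associated with the plastid-encoded polymerase, 0 were called higher and 3 lower in WT, 3 and 1 in pif7, 0 and 1 in asf1ab, and 2 and 0 in hira. Of 11 genes for plastid RNA processing, 0 were called higher and 4 lower in WT, 2 and 3 in pif7, 1 and 5 in asf1ab, and 1 and 1 in hira. Over all genes 14.9% were called higher and 11.4% lower in WT, 29.9% and 13.6% in pif7, 18.8% and 12.3% in asf1ab, and 26.0% and 9.55% in hira. In white light no gene of these 4 lists was called between a mutant and WT by limma, with the exception of HCF107 in asf1ab at 0.30 (adjusted p = 0.0310). Over all genes 6.26% were called higher and 15.8% lower in asf1ab, 2.61% and 9.03% in hira, and 0.397% in either direction in pif7. SIG5 was called lower in shade in all 4 genotypes. Most plastid calls came from the comparisons that hold the high white-light hira and asf1ab libraries. Any relation of SIG5 to the plastid levels was not tested.

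**Figure D5:**
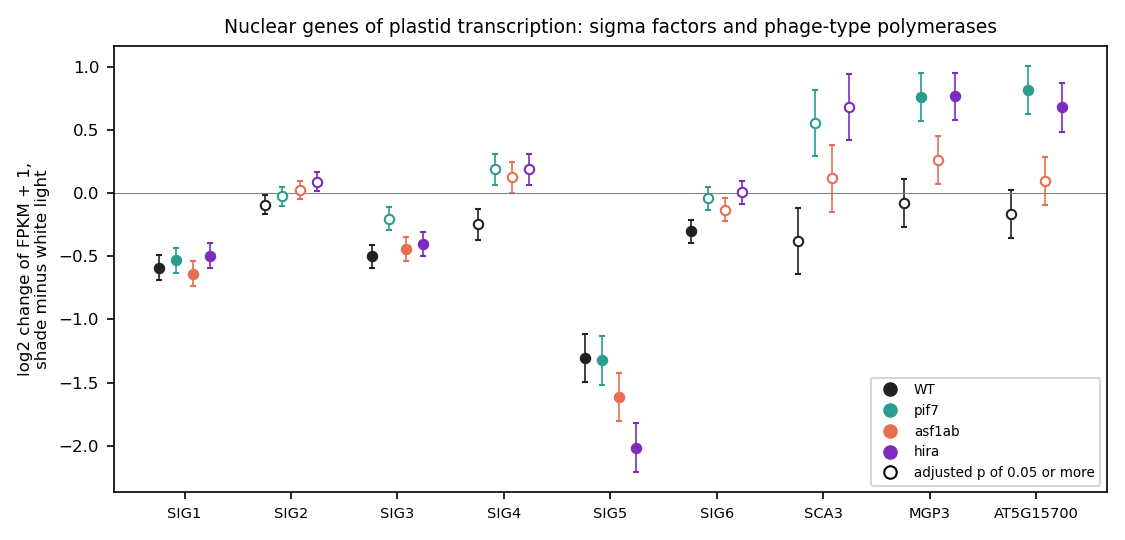
Log2 change in shade ± SE (limma, log2(FPKM + 1)) of the 6 sigma factor genes and 3 phage-type polymerase genes in WT, pif7, asf1ab and hira; filled symbols have an adjusted p below 0.05. SIG5 lies lowest, from -1.31 in WT to -2.02 in hira, and AT5G15700 is filled in pif7 and hira only.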

How the data were processed

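RNA was measured in 24 libraries of whole Arabidopsis seedlings, from total RNA extracted with TRIzol per the labels' protocols; the sources used here do not say how RNA was selected, and plastid transcripts mostly lack stable poly(A) tails. The values are FPKM deposited by the authors in a table of 33020 loci; the submitters' processing notes name FastQC, cutadapt, STAR, HTSeq, DESeq2 and the TAIR10 build, with no versions. No read counts were used, so the depth behind each value is unknown and no counting interval is given; summed FPKM ran from 778266 to 893997 per library, and 18427 to 19298 genes had at least 1 FPKM.

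The 19126 genes with a mean of at least 1 FPKM were tested with limma 3.58.1 (R 4.3.3) on log2(FPKM + 1), with 8 group means, a trended prior and Benjamini-Hochberg adjustment over all 19126. The plastid share was compared by exact two-sided permutation. The fits were tested on simulated data. Members and gene lists were chosen with earlier results of these data known. Loci were named by these rules: in each comparison the 8 called loci of largest change, the 5 most and 5 least variable, and, chosen after their values were seen, those with a mean of at least 100 FPKM those with an annotated product and those noted for zeros or a single library; the part of the rule by role group could not be applied, because the reference gives no roles for these identifiers. Alternatives tried were other pseudocounts, filters and scalings, a replicate block, fits of the compared groups alone, each library left out in turn, and other sums for the share.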

Additional observations from a re-analysis of the deposited data

Results flagged for a closer look

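Among the nuclear genes on the lists used here, 6 differed in shade response between pif7 and WT by an interaction term in limma. For hira minus WT, 1 of the listed genes did. Over all 19126 genes, 1167 (6.1%) were called for pif7 minus WT and 247 (1.29%) for hira minus WT. On the log2 scale the difference of pif7 minus WT was 0.98 for AT5G15700, a phage-type RNA polymerase gene (adjusted p = 0.0357), 0.70 for PTAC6 (0.02) and 0.75 for emb2746 (0.0238), both on the lists of genes for plastid transcription and RNA processing, and 0.45 for AT5G42310 (0.0278). For the light-harvesting genes LHCB1.3 and LHCB2.1 it was -1.17 (adjusted p = 0.0367) and -1.61 (0.00336). For hira minus WT the difference was 0.58 for PTAC2 (adjusted p = 0.0425), a protein of the transcriptionally active plastid chromosome. The cause of these differences was not tested, and LHCB2.1 kept its call in all 22 alternatives run. The call was lost in 17 of 22 for PTAC2, 13 of 22 for LHCB1.3, 12 of 21 for AT5G15700, 9 of 22 for AT5G42310, 4 of 22 for emb2746 and 3 of 22 for PTAC6. No plastid-encoded locus was called for such a difference in the fit of all 24 libraries.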

How the results depend on the processing

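Leaving out 1 library at a time, whichever it was, gave 0 to 5 called plastid loci for shade in WT, 0 to 5 in pif7, 2 to 18 in asf1ab, 6 to 39 in hira and 22 to 41 for the average, 0 to 0 for pif7 against WT in white light, 0 to 15 for asf1ab and 4 to 36 for hira, and 0 to 2, 0 to 0 and 0 to 4 for the shade response of pif7, asf1ab and hira minus that of WT. The share moved over -0.309 to -0.0438 percentage points for shade in WT, -0.0383 to 0.209 in pif7, -0.676 to -0.0154 in asf1ab, -1.59 to -0.810 in hira and -0.532 to -0.317 for the average (exact permutation p up to 0.0742), over 0.0365 to 0.157, 0.182 to 0.842 and 1.08 to 1.87 for pif7, asf1ab and hira against WT in white light, and over 0.0947 to 0.361, -0.524 to 0.137 and -1.44 to -0.658 for the 3 differences in shade response, which were not tested.

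With a pseudocount of 5, 2 loci were called for shade in WT and 1 in pif7. With a mean of at least 5 FPKM, 2 were called for shade in pif7, 3 in asf1ab, and 2 for asf1ab against WT. With no filter on low values it was 1 in WT and 1 in pif7. Median of ratios scaling, quantile normalization and plastid loci scaled to a common level each gave 3 for shade in pif7, and the last gave 19 in asf1ab (9 higher), 11 in hira (5 higher), 13 and 12 for asf1ab and hira against WT, and 4, 1 and 1 for the shade response of pif7, asf1ab and hira minus WT. Fits of the compared groups alone gave 2 for shade in WT, 10 in pif7, 1 in asf1ab, 0 and 0 for asf1ab and hira against WT, and 4 for the response of pif7 minus WT. Of the alternatives chosen after seeing the data, the average over WT, pif7 and asf1ab without white-light asf1ab replicate 1, which drops all hira libraries, gave 6 called loci and a share difference of -0.0389 percentage points, and both hira comparisons without white-light hira replicates 1 and 2 gave 0. Without the 4 most abundant loci the share differed by -0.329 percentage points for shade in hira, -0.00111 and 0.346 for pif7 and hira against WT in white light and -0.276 for the response of hira minus WT; with each identical pair counted once it was 0.826 for hira against WT. The cause of these moves was not tested.

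Scaled to a common plastid level, the log2 change in shaded hira turned to 0.045 for ATCG00020, 0.21 for ATCG00480, 0.24 for ATCG00920 and ATCG01210, 0.18 for ATCG00950 and ATCG01180 and 0.30 for ATCG01310, and the average turned to 0.16 for ATCG00480 (limma adjusted p = 0.0416), 0.16 for ATCG00920 and ATCG01210 and 0.17 for ATCG01310. Under quantile normalization the average shade change of RBCS1A (AT1G67090) turned to 0.022. The labels name no pairing, and replicate numbers were not taken as pairs in the main fit. Same-numbered libraries of the 2 lights correlated in their deviations by -0.009 to 0.186, mostly above 0. Differently numbered ones correlated by -0.229 to 0.204, mostly below 0. This is not a second observation, because deviations from a group mean sum to 0 within the group. Whether same-numbered libraries were handled together is not stated. With a replicate block 3 plastid loci were called for shade in pif7, and no other count of called plastid loci moved by over 1.5 times. That block holds an effect of replicate number shared by all groups, so it cannot decide on pairing within a genotype. Of 75 single-locus plastid results 13 kept direction and call in every alternative run. Protein-coding loci alone, rRNA and tRNA loci left out, and FPKM weighted by length were not run, because the identifiers have no annotated class or length here; unknown depth limits what can be said of loci listed at 0.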
